A study of Mus musculus with 8 samples.

Results

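Ubiquitin-conjugating enzymes, or E2 enzymes, are the middle step of ubiquitination. An E1 enzyme activates ubiquitin, an E2 enzyme takes it onto its active-site cysteine, and an E3 ligase guides the transfer to a target protein, which is often then degraded by the proteasome. In oocytes this pathway removes cyclin B and securin as meiosis proceeds, and some E2 enzymes carry related proteins such as NEDD8 or ISG15 in place of ubiquitin. The genes described here are the 39 with a symbol that starts with Ube2 and a probe set that names no other gene, of 29455 genes measured in that way. Each of the 39 had a single such probe set. A further 2 probe sets name a Ube2 gene together with another gene and were not counted.

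Of the 39 genes, 35 were placed among the E2 enzymes or their catalytically inactive variants, and 4 carry the symbol without being E2 coding genes. Ube2cbp, also named Ube3d, codes for an E3 ligase, Ube2nl is a pseudogene, and Ube2d-ps and Ube2uos are noncoding in the RefSeq gene table. All 39 except Ube2d4 were matched to that table.

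The signals came from 8 Affymetrix MoGene 2.1 ST arrays of oocyte RNA from female ICR mice aged 8 weeks, fed without phyto-oestrogens. The 4 control arrays were of mice labelled as untreated. The 4 BPS arrays were of mice that took bisphenol S (BPS), a bisphenol A analogue, by gavage on 7 days in 50% glycerol with 0.1% DMSO, with a daily dose of 0.1 ng for each g of body weight, and no vehicle is named for the controls. The protocols speak both of collected ovaries and of oocyte RNA, and they tie no array to 1 mouse, so p-values measure the spread between arrays. All 16 oocyte markers, among them Gdf9 and Zp3, lay above background, and array medians ran from 4.15 to 4.21. Other cells' markers above background numbered 3 of 15 for granulosa and cumulus, 0 of 10 for theca and stroma, 0 of 7 for erythroid and immune and 1 of 5 for endothelial cells.

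Signals are log2 values of the RMA method, and a difference is BPS minus control on that scale. Background was 4.53, the 95th percentile of mean signal over probe sets of Y-linked, olfactory and vomeronasal receptor genes, which a female oocyte is not taken to use. Probe sets respond differently to the same amount of RNA, so the signals of different genes are not ranked as amounts. In bulk RNA, fewer cells of a type and less RNA per cell cannot be told apart.

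Of the 39 Ube2 genes, 26 had a mean over 8 arrays above background, against 9029 of all 29455 genes. With the 99th percentile as background it was 16 of 39. The gene just above the level was Ube2e3 at 4.53 and the one just below it was Ube2r2 at 4.44. The brightest signal was that of Ube2k, which extends ubiquitin chains, with 10.19, 10.08, 10.14 and 10.15 in control arrays 1 to 4 and 9.88, 10.18, 10.03 and 10.16 in BPS arrays 1 to 4. Ube2d3, a member of the UBE2D family that works with many E3 ligases, gave 8.58, 8.73, 8.93 and 8.81 in control and 8.64, 8.73, 9.01 and 8.92 in BPS arrays. Ube2t, the partner of Fancl in Fanconi anaemia repair, gave 8.29, 8.49, 8.91 and 8.25 in control and 8.07, 8.43, 8.43 and 8.61 in BPS arrays. In all 3 genes the groups overlapped.

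Ube2g1 (mean 8.07) and Ube2w (mean 7.21), which attaches ubiquitin to protein N-termini, also lay well above background, as did the Rad6 homologues Ube2a and Ube2b with means of 6.62 and 6.52. Ube2a is a maternal factor for early mouse embryos, and both work with Rad18 in DNA damage tolerance. Ube2q1, linked to female fertility in mice, had a mean of 6.42. Ube2c, which starts ubiquitin chains for the anaphase-promoting complex, had a mean of 5.46. Ube2m, an E2 enzyme of NEDD8, lay nearer to background with a mean of 4.77.

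The 13 genes not above background had means between 3.92 and 4.44. They included Ube2f, the other NEDD8 enzyme, Ube2l6, the E2 enzyme of ISG15, and the X-linked pair Ube2dnl1 and Ube2dnl2. Ube2v1 and Ube2v2, inactive variants that pair with Ube2n to build ubiquitin chains, were both among them. Ube2v1 gave 3.94, 3.92, 4.01 and 4.03 in control and 3.84, 3.96, 3.99 and 4.00 in BPS arrays. Ube2v2 gave 3.95, 4.05, 3.79 and 3.79 in control and 4.14, 3.96, 3.71 and 3.94 in BPS arrays. Ube2n itself lay above background with a mean of 5.24. Ube2j2, a membrane-anchored enzyme of the endoplasmic reticulum, gave 3.74, 3.99, 4.03 and 3.96 in control and 3.85, 3.92, 3.98 and 4.05 in BPS arrays. A probe set at background does not show that the transcript is absent.

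**Figure D1:**
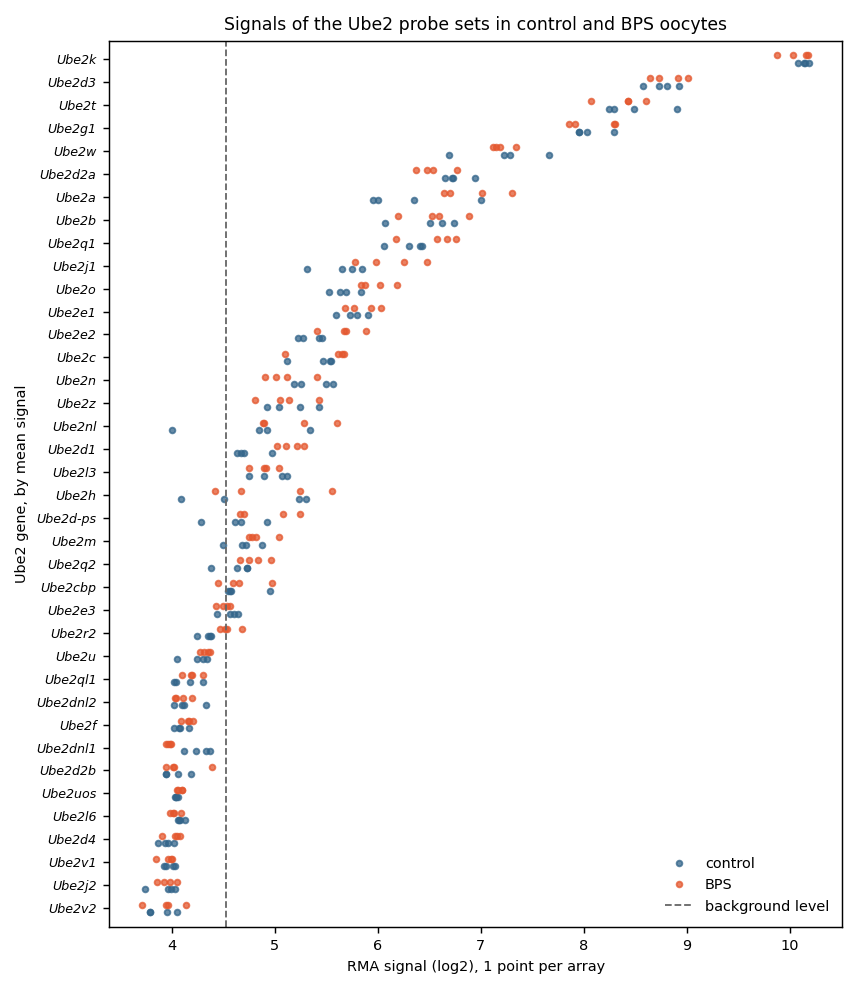
RMA signal on a log2 axis of 38 of the 39 Ube2 probe sets in the 4 control (blue) and 4 BPS (orange) arrays, 1 point per array, with genes placed by mean signal and the background level of 4.53 as a dashed line. Ube2k, Ube2d3 and Ube2t lie far to the right in both groups, and 13 genes have means left of the line.

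Every Ube2 gene above background with a matched promoter had at least 10 CG pairs there. Promoter windows of 300 bases, 250 before and 50 after a RefSeq transcript start on GRCm38.p6, were matched for 31 of the 39 genes, using the window farthest upstream where a gene had several. That start was the outer end of the gene span for 23 genes and lay inside the span for 8, by 15 bases for Ube2v1 to 3359 for Ube2b. All 20 matched genes above background held at least 10 CG pairs, against 7 of the 11 matched genes not above it and 44.0% of the 27025 genes with a window. The cut of 10 equals the lowest count among these 20 genes, so the cut itself makes all of them reach it. No share over all genes above background is given here, so a Ube2 trait cannot be told apart from one of expressed genes in general. The median was 28.5 CG pairs above background, 15 below it, and 7 over all genes with a window. These counts are a description, and no test was made.

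The 250 bases before that transcript start are shown for the brightest gene, for the pair of genes that were higher in BPS with the array-series block described below, and for Ube2dnl1, which was lower. They lie at chr5:65536995-65537244 on the plus strand, chr10:71285263-71285512 on the minus strand, chr4:33031130-33031379 on the plus strand and chrX:114904762-114905011 on the plus strand, and each is written 5′ to 3′ with its CG pairs in capitals.
Ube2k: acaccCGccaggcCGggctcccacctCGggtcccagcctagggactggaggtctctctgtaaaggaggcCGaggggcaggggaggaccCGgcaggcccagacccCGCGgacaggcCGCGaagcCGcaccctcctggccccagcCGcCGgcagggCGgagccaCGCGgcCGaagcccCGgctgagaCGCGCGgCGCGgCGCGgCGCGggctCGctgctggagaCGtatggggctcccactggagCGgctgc
Ube2d1: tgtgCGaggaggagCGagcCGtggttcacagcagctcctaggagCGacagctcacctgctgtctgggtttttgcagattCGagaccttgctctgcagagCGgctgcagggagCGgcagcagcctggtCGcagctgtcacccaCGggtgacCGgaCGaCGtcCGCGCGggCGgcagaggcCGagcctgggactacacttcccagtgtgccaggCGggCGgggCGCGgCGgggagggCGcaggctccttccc
Ube2j1: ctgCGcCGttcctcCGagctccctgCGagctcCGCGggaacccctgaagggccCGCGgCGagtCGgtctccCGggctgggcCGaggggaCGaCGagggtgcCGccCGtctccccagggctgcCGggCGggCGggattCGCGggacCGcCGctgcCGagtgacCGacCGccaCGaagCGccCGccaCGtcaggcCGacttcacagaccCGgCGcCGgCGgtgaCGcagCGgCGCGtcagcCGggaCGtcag
Ube2dnl1: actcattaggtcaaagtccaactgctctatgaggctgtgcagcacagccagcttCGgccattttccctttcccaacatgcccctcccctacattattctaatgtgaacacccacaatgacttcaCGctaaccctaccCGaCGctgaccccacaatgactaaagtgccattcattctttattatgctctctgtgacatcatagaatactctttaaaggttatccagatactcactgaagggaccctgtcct
Of the Ube2d1 stretch, 122 bases lie inside the gene span, and the other 3 stretches lie outside theirs. The first 3 stretches hold 29, 23 and 41 CG pairs, and that of Ube2dnl1 holds 4. The palindromic oestrogen response element was in 0 of the 31 windows and in 0.0666% of all windows. Its half-site GGTCA, on either strand, was in 17 of the 31 (54.8%) and in 40.1% of all windows, and a palindrome holds the half-site on both strands. It was in 60.0% of the 20 windows of genes above background and in 45.5% of the 11 others. As for the CG pairs, no share over all genes above background is given, so a Ube2 trait cannot be told apart from one of expressed genes. TATAAA, on either strand, was in 2 of the 31 (6.45%) and in 14.2% of all windows.

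The comparison of BPS with control oocytes asked whether the level of any Ube2 transcript differed between the groups. The labels do not say whether controls had gavage or vehicle, so an effect of BPS cannot be told apart from one of these. In limma without a block 0 of the 39 genes passed an adjusted p under 0.05, where 3 of 34472 probe sets did (0.0087%), and 7 of the 39 had an unadjusted p under 0.05 (17.9%), against 11.1% of all probe sets. Of these 7, 6 were higher in BPS and 1 lower, against 7.99% and 3.11% of all probe sets. Among the 26 genes above background it was 5 (19.2%), against 20.1% of all probe sets above background, a share near the background, and all 5 were higher, against 16.3%. The median difference over the 39 genes was 0.06, with 27 positive and 12 negative, against a median of 0.03 over all probe sets. Over the 26 genes above background it was 0.08, and 0.12 over all probe sets above background.

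That shift depends on the scaling. After quantile normalization the median was 0.03 over the 39 genes and -0.04 over the 26 above background, with 12 of the 26 positive and 14 negative, and 0.00 over all probe sets. The differences below are on the deposited scaling unless the quantile value is named.

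**Figure D2:**
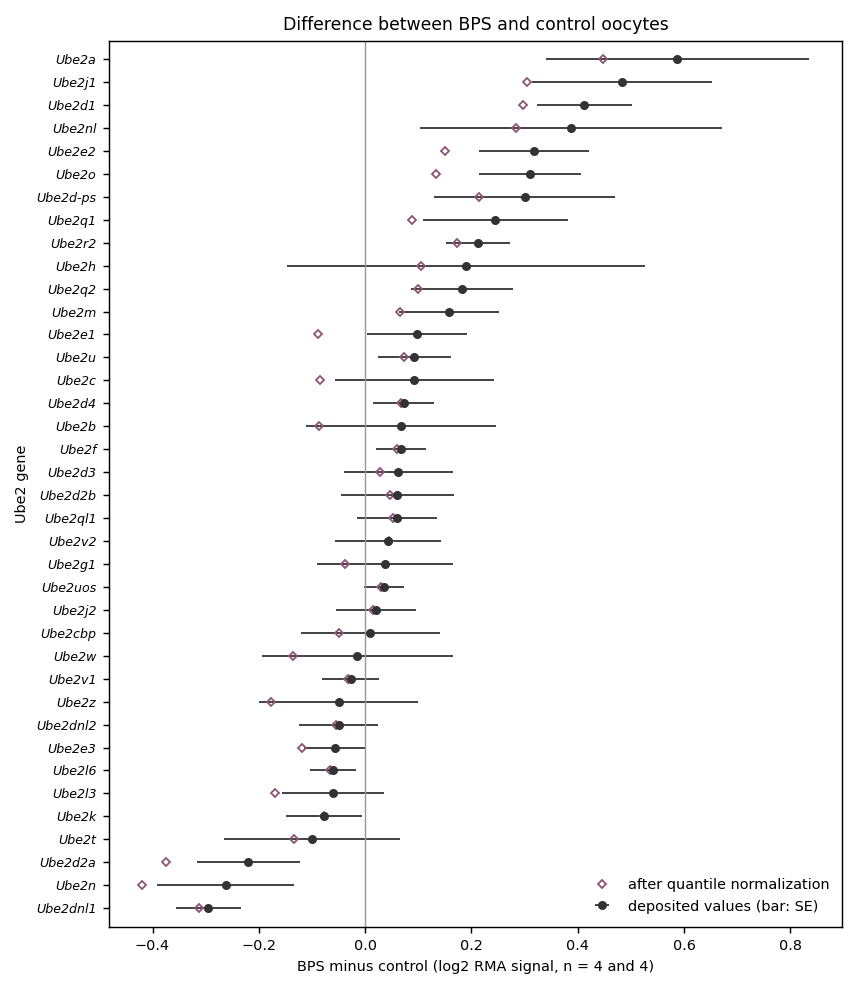
BPS minus control in log2 RMA signal for 38 of the 39 Ube2 genes, from 4 BPS and 4 control arrays. Filled circles with SE bars are the deposited values and open diamonds the values after quantile normalization, which lie further left for most genes. No gene passed an adjusted p under 0.05 in either fit.

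Ube2d1, a UBE2D enzyme, had the smallest p of the genes higher in BPS. It gave 4.63, 4.70, 4.97 and 4.67 in control and 5.02, 5.11, 5.21 and 5.28 in BPS arrays. All 4 BPS values lay above all 4 control values, which was so for 2 of the 39 genes and 4.13% of all probe sets. The difference was 0.41 ± 0.09 (SE), a 1.33-fold difference (limma adjusted p = 0.298), and 0.30 after quantile normalization. Array names in the authors' deposited table end in a number or a letter, with 2 arrays of each kind a group, and the difference was 0.40 in the former and 0.42 in the latter. Without 1 array it ran from 0.37 to 0.49. Ube2d1 spans 71254980 to 71285384 of chromosome 10 on GRCm38.p6.

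Ube2dnl1, an X-linked gene named for its likeness to UBE2D, was lower in BPS. It gave 4.33, 4.12, 4.23 and 4.37 in control and 3.94, 3.96, 3.99 and 3.98 in BPS arrays. The groups did not overlap, as in 1.68% of all probe sets with BPS lower, but every value lay below the background of 4.53. The difference was -0.30 ± 0.06 (SE, limma adjusted p = 0.298), and -0.31 after quantile normalization. Its neighbour Ube2dnl2 differed by -0.05 ± 0.07 (SE). Ube2dnl1 spans 114905012 to 114905941 of chromosome X.

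Ube2d2a, a further UBE2D enzyme, gave 6.72, 6.94, 6.65 and 6.73 in control and 6.37, 6.77, 6.54 and 6.48 in BPS arrays. The BPS mean was lower and the groups overlapped through BPS array 2. The difference was -0.22 ± 0.10 (SE, limma adjusted p = 0.455), and -0.37 after quantile normalization. The remaining UBE2D genes differed by less, with 0.06 for Ube2d3 and Ube2d2b and 0.07 for Ube2d4. UBE2D genes are close in sequence, and whether their probe sets separate them was not analysed here.

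Ube2j1, the membrane-anchored enzyme that serves degradation of misfolded proteins at the endoplasmic reticulum, gave 5.31, 5.65, 5.85 and 5.75 in control and 5.98, 5.78, 6.25 and 6.48 in BPS arrays. All BPS values except that of array 2 lay above every control value. The difference was 0.48 ± 0.17 (SE), 1.40-fold (limma adjusted p = 0.402), and 0.30 after quantile normalization. Without 1 array the difference ran from 0.36 to 0.60. Ube2j1 spans 33031380 to 33052367 of chromosome 4. Its relative Ube2j2 differed by 0.02 ± 0.08 (SE) at background.

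In DNA repair, Ube2n gave 5.25, 5.18, 5.50 and 5.56 in control and 4.90, 5.01, 5.41 and 5.12 in BPS arrays. Its BPS mean was lower, with BPS arrays 1, 2 and 4 below every control value. The difference was -0.26 ± 0.13 (SE, limma adjusted p = 0.478), -0.42 after quantile normalization, and -0.26 and -0.27 in number-named and letter-named arrays. Ube2a, singled out after its values were seen, had the largest difference of the 39, 0.59 ± 0.25 (SE), 1.50-fold (limma adjusted p = 0.44), and 0.45 after quantile normalization. It gave 5.95, 6.35, 7.00 and 6.00 in control and 6.70, 6.64, 7.01 and 7.30 in BPS arrays, so that control array 3 reached the BPS range. Without 1 array the difference ran from 0.46 to 0.81, the latter without control array 3. Its paralogue Ube2b differed by 0.07 ± 0.18 (SE), and by -0.09 after quantile normalization, and Ube2t by -0.10 ± 0.17.

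Ube2e2, of the UBE2E family, gave 5.22, 5.27, 5.43 and 5.46 in control and 5.69, 5.41, 5.88 and 5.67 in BPS arrays, with BPS array 2 inside the control range. Its difference was 0.32 ± 0.10 (SE, limma adjusted p = 0.389), and 0.15 after quantile normalization. Ube2e1 and Ube2e3 differed by 0.10 and -0.06, and Ube2e1 by -0.09 after quantile normalization.

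Ube2o, a large enzyme that combines E2 and E3 activity, gave 5.69, 5.52, 5.84 and 5.63 in control and 5.84, 5.87, 6.02 and 6.19 in BPS arrays. The lowest BPS value equalled the highest control value. The difference was 0.31 ± 0.10 (SE, limma adjusted p = 0.383), and 0.13 after quantile normalization. Ube2r2, which serves cullin ligases, gave 4.24, 4.37, 4.35 and 4.38 in control and 4.53, 4.47, 4.68 and 4.51 in BPS arrays. These groups did not overlap, and every control value lay below background. The difference was 0.21 ± 0.06 (SE, limma adjusted p = 0.371), and 0.17 after quantile normalization.

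The other members all had an unadjusted p above 0.05. Ube2l6 gave 4.07, 4.06, 4.08 and 4.13 in control and 3.98, 4.02, 4.09 and 4.01 in BPS arrays, all below background, and differed by -0.06 ± 0.04 (SE). Ube2k differed by -0.08 ± 0.07. Ube2m differed by 0.16 ± 0.09, and by 0.06 after quantile normalization. Ube2c differed by 0.09 ± 0.15 and by -0.09 after quantile normalization. It gave 5.12, 5.54, 5.47 and 5.53 in control and 5.10, 5.61, 5.67 and 5.65 in BPS arrays, so array 1 of each group stood low. Of the remaining genes, Ube2h, Ube2q1, Ube2q2, Ube2nl and Ube2d-ps had positive differences of 0.18 to 0.39, and of 0.09 to 0.28 after quantile normalization. Ube2f, Ube2g1, Ube2l3, Ube2ql1, Ube2u, Ube2uos, Ube2w and Ube2z differed by -0.06 to 0.09 and, quantile normalized, by -0.18 (Ube2z) to 0.07 (Ube2u), with Ube2g1 turning from 0.04 to -0.04. The spread of Ube2nl was wide, with 0.39 ± 0.28 (SE). Ube2cbp, the E3 ligase, gave 4.56, 4.95, 4.57 and 4.54 in control and 4.97, 4.59, 4.45 and 4.65 in BPS arrays, and differed by 0.01 ± 0.13, with 1 high array in each group.

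A block for the kind of array name, called the array-series block here, changed the calls. With it 3 of the 39 genes passed (7.69%), against 3.47% of all probe sets. Among those above background it was 2 of 26 genes (7.69%), against 8.94% of all probe sets above background. Ube2d1 (0.41 ± 0.07 SE, limma adjusted p = 0.0288) and Ube2j1 (0.48 ± 0.10, adjusted p = 0.0456) were higher in BPS, where 2.78% of all probe sets were, and Ube2dnl1 (-0.30 ± 0.06, adjusted p = 0.0447) was lower, where 0.688% were. The calls did not hold without most single arrays. Without mv1, mv3, mv4, mvA, mvB or mvD, as the deposited table names the arrays, none of the 39 passed, without mvC Ube2d1 and the pseudogene Ube2nl passed, the latter not called with all arrays, and without mv2 Ube2d1, Ube2j1 and Ube2dnl1 passed. With the replicate numbers of the titles as a block 0 of the 39 passed, where 1.99% of all probe sets did, and the adjusted p of the same 3 genes were 0.0585, 0.105 and 0.0737.

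After quantile normalization the same array-series block called other members, 2 of the 39 (5.13%) against 1.77% of all probe sets. Both lay above background, where it was 2 of 26 (7.69%) against 4.44% of all probe sets. Ube2n (-0.42 ± 0.07 SE, limma adjusted p = 0.0287) and Ube2d2a (-0.37 ± 0.06, adjusted p = 0.0319) were lower in BPS, where 0.772% of all probe sets were. Ube2d1, Ube2j1 and Ube2dnl1 then had adjusted p of 0.0878, 0.154 and 0.0631. Ube2n passed without mv2 and Ube2d2a without mv4, and neither passed without any other array. All 5 genes kept the sign of their difference under both scalings and in both array series. They were picked by fits with the array series as a block, which favour like differences in both series. The sign was the same across series in 85.9% of all probe sets, so this adds no support.

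**Figure D3:**
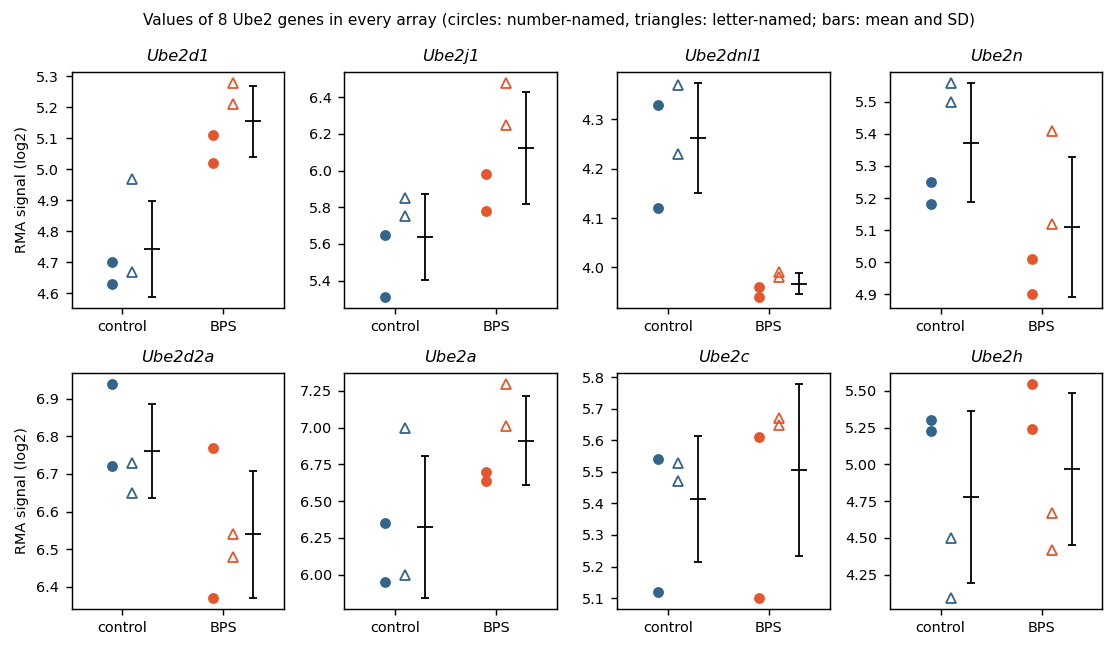
RMA signal (log2) of 8 Ube2 genes in every array, with number-named arrays as filled circles and letter-named arrays as open triangles, control in blue and BPS in orange. Bars give the mean and SD of 4 arrays, and each panel has its own axis, which does not start at 0. The groups are apart for Ube2d1 and Ube2dnl1, while Ube2h differs by array series in both groups.

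The array series themselves differed in 3 of the 39 genes (7.69%), against 5.51% of all probe sets. Ube2h, which supplies ubiquitin to the CTLH ligase complex and was singled out after its values were seen, gave 5.30 and 5.23 in the number-named and 4.09 and 4.50 in the letter-named control arrays. In BPS it gave 5.24 and 5.55 in the number-named and 4.67 and 4.42 in the letter-named arrays. The letter-named arrays lay lower by -0.91 ± 0.11 (SE, limma with group as a term, adjusted p = 0.00976), with no overlap in either group, while BPS and control differed by 0.19 ± 0.34. Ube2n (0.31 ± 0.07, adjusted p = 0.0463) and Ube2d-ps (0.42 ± 0.09, adjusted p = 0.0466) were higher in the letter-named arrays. The sources used here do not say what the names stand for.

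BPS and control were also compared separately in number-named and letter-named arrays, which share no array. The sign was the same in 34 of the 39 genes (87.2%), 24 positive and 10 negative, against 85.9% of all probe sets. Across the 39 genes Pearson's r of the differences was 0.89, and 0.92 across all probe sets, so the Ube2 genes did not stand apart in this. Genes of the same arrays share RNA and normalization, and the value is a description.

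**Figure D4:**
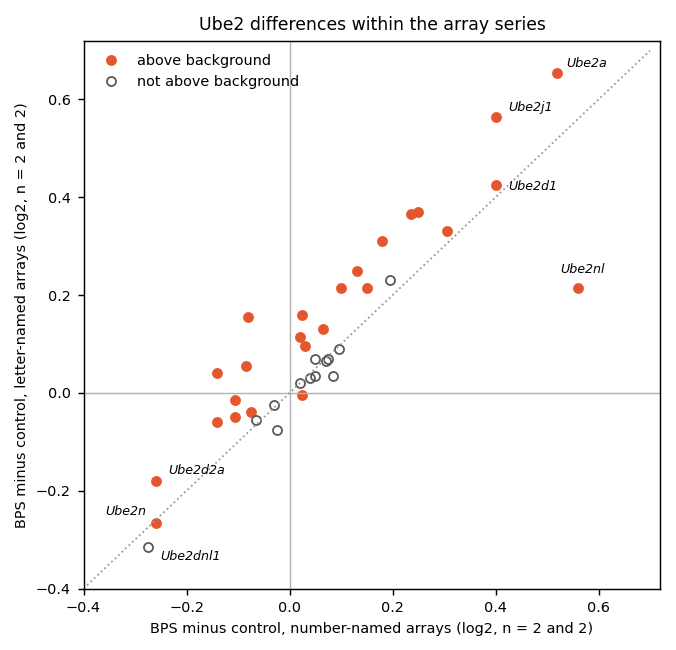
BPS minus control (log2) of 38 of the 39 Ube2 genes in the letter-named arrays against that in the number-named arrays, each from 2 BPS and 2 control arrays, with filled points for genes above background and the dotted line marking equal values. Ube2a, Ube2j1 and Ube2d1 lie at the upper right and Ube2n, Ube2d2a and Ube2dnl1 at the lower left.

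Genes that act before and after the E2 step gave 0 calls without a block. An unadjusted p under 0.05 was found for 1 of 10 E1, 1 of 15 modifier and 8 of 48 E3 genes. Over all probe sets the share was 11.1%, and 20.1% over those above background. The 10 E1 genes had a median difference of 0.09, which was 0.01 after quantile normalization. Atg7, the E1 enzyme of autophagy, differed by 0.60 ± 0.21 (SE), with adjusted p of 0.0391 and 0.0473 in limma with the array-series and the replicate block, and of 0.0897 with the array-series block after quantile normalization. The array-series call of Atg7 held in 2 of 8 fits without 1 array, with an adjusted p of up to 0.114. Uba3, the catalytic subunit of the NEDD8 E1, differed by 0.37 ± 0.18, and Uba1, the main ubiquitin E1, by -0.12. Among 8 measured E2 relatives with other symbols (median 0.08, and -0.0004 after quantile normalization), Cdc34, the E2 enzyme of cullin ligases, differed by 0.49 ± 0.29, with an adjusted p of 0.0489 in limma with the array-series block that ran to 0.131 without 1 array, of 0.0792 with the replicate block and of 0.126 with the array-series block after quantile normalization. Tsg101, an inactive E2 relative of endosomal sorting, differed by 0.14 ± 0.09. With the array-series block 1 of the 10 E1 genes, 1 of the 8 E2 relatives and 2 of the 48 E3 genes passed. The share with that block was 3.47% of all probe sets and 8.94% of those above background.

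Over the 15 ubiquitin and modifier genes the median difference was 0.11, and 0.00 once quantile normalized. Rps27a, which codes for ubiquitin fused to a ribosomal protein and lay below background, differed by 0.15 ± 0.05 (SE). Among 48 measured E3 ligases and cofactors (median 0.03, and -0.02 after quantile normalization), 34 were positive and 14 negative, with 7 higher and 1 lower at an unadjusted p under 0.05, against 7.99% and 3.11% of all probe sets. Of the 48, 35 lay above background, where the shares over all probe sets were 16.3% and 3.86%. Of the 7 higher genes, Fbxo43, Rad18, Rnf20 and Hltf lay above background, and Rnf7, Rnf31 and Bard1 did not. Btrc, the 1 lower gene, lay above it. Rad18, the partner of Ube2a and Ube2b, differed by 0.33 ± 0.11 (limma adjusted p = 0.0391 with the array-series block, and at least 0.0502 without 1 array). Fbxo43, the inhibitor of the anaphase-promoting complex in metaphase arrest, differed by 0.32 ± 0.06 (limma adjusted p = 0.0239 with that block, and up to 0.0745 without 1 array). Neither passed with the replicate block or after quantile normalization. Rnf7, the ring subunit that works with Ube2f and lies below background, differed by 0.27 ± 0.08.

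Markers of other cells were measured beside these genes. The summed signal of the 15 granulosa and cumulus markers, as log2 of the sum, ran from 8.38 to 8.54 in control and from 8.46 to 8.80 in BPS arrays, with Inha, Nr5a2 and Gata4 above background and Amh, Fshr and Cyp19a1 below it. Inha was brightest in BPS array 4 at 6.56, where Ube2d1, Ube2j1, Ube2a and Ube2o were also highest, while Ube2e2 and Ube2r2 were highest in BPS array 3. Inha ran from 4.50 to 5.34 in the other arrays. Atg7, Uba3, Cdc34 and Rad18, which were named for a small p or a call, were also highest in BPS array 4. Of the 16 oocyte markers, Figla (6.01) and Ooep (7.10) were highest in BPS array 4, and the rest in other arrays. The summed signal of the 5 endothelial markers ran from 7.36 to 7.48 in control and from 7.41 to 7.68 in BPS arrays, with Pecam1 above background. The 16 oocyte markers ran from 13.77 to 13.98 and from 13.81 to 13.92. Of these Zar1 was lower with the array-series block (-0.38, limma adjusted p = 0.0299, and up to 0.0829 without 1 array) and Figla higher with the replicate block (0.44, adjusted p = 0.0368), and neither passed without a block. The groups overlapped in each list, and the part of these cells in the Ube2 differences was not tested.

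In the authors' deposited table the p was under 0.05 for 6 of the 39 genes, against 5.31% of all probe sets, and the smallest FDR among the 39 was 0.864. As 26 of the 39 genes lay above background and no share of these p over such probe sets is given, the count is not a Ube2 trait. The 6 were Ube2d1, Ube2dnl1, Ube2e2, Ube2j1, Ube2o and Ube2r2. The authors' deposited table gives a signed fold of control over treated of -1.41 for Ube2d1, -1.66 for Ube2a and 1.23 for Ube2dnl1, where a negative sign means higher in BPS. The group means gave 1.33-fold for Ube2d1 and 1.50-fold for Ube2a, so the authors' folds do not follow from these means. For some genes the direction was opposite, as for Ube2t (authors' fold -1.07, difference -0.10) and Ube2b (1.03 and 0.07).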

How the data were processed

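Per the file headers, the authors summarised MoGene 2.1 ST arrays at gene level with RMA and annotated them on mm10. Per the submitters' processing notes, the software was the Transcriptome Analysis Console. The series matrix and the deposited workbook hold the same log2 signals: each of the 8 workbook columns equalled 1 column of the series matrix in all 34472 values, so that mv1, mv2, mvC and mvD are control 1 to 4 and mv3, mv4, mvA and mvB are BPS 1 to 4. The workbook also holds the authors' signed fold, p-value and FDR, by a test not given in the sources used here.

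The linear models of limma 3.58.1 (lmFit, then eBayes; R 4.3.3) were run on all 34472 probe sets, with two-sided p-values adjusted by Benjamini-Hochberg over the whole table and a threshold of 0.05. The script was tested on simulated data. Python 3.11.15 with pandas 2.3.3 made the tables, and matplotlib 3.10.9 the plots. The members and gene lists were chosen with earlier results of these data known. Values per array are given for members past the threshold in any fit of 8 arrays, the 5 of each direction with the smallest p, those with a stray array, and the 3 highest and 3 lowest signals, and genes of each list. Lists were E1 enzymes, E2 relatives, modifiers, E3 partners and cell markers.

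Same-numbered arrays of both groups correlated in their deviations at 0.519, 0.383, 0.173 and 0.362. All exceed 0.1, but so did arrays of other numbers in the same series, at 0.453 and 0.305 in the number-named and 0.437 and 0.493 in the letter-named arrays. In the letter-named arrays these were higher than the same-numbered values of 0.173 and 0.362. The correlations therefore do not show that the numbers pair the arrays, and the replicate block is only an alternative. What same-numbered arrays share is not in the labels. Alternatives were quantile normalization, median centring, level filters, both blocks, other variance priors and leaving out arrays. The number of arrays limits the precision. Values of 1 of the 39 genes and of 1 listed gene are not reported here, and both are in all counts.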

Additional observations from a re-analysis of the deposited data

Results flagged for a closer look

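Of 78 groups of 4 values, the 39 genes in each group, 3 held an array far from the others (3.85%), where chance gives about 1 in 20. Ube2c stood low in array 1 of both groups, at 5.12 in control, with the next value at 5.47, and at 5.10 in BPS, with the next value at 5.61. Array 1 was also the lowest of both groups for other genes, among them Ube2b, Ube2d3 and Ube2e1. That was not so for every gene, as Ube2g1 was highest in control array 1. Ube2cbp stood high in control array 2, at 4.95, with the next value at 4.57.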

How the results depend on the processing

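The count of 0 Ube2 genes past the threshold was 3 with the array-series block and 2 with that block after quantile normalization. It was 0 with the replicate block, which treats arrays with the same title number as pairs. Leaving out 1 array gave 0 without a block, 0 to 3 with the array-series block and 0 to 2 with it after quantile normalization, the last 2 settings chosen after seeing the data, and 0 to 3 in all. The count at an unadjusted p under 0.05, 7 of 39, was 6 after quantile normalization and ran from 5 to 11 without 1 array. Of all probe sets, 3 passed, against 685 with the replicate block, 1195 with the array-series block, 611 and 319 with the array-series and replicate block after quantile normalization, 1 with median centring or a robust prior, 0 with quantile normalization or an intensity trend, 0 within each kind of array name, and 0 to 1229 without 1 array. After quantile normalization, with or without a block, the median difference was 0.0134 over the E1 genes and -0.0016 over the modifiers. Without 1 array, medians ran from 0.0006 to 0.0833 over Ube2 genes, -0.0162 to 0.1158 over E1 genes, -0.0075 to 0.1517 over modifiers and -0.0479 to 0.0817 over E3 genes. With the 99th percentile as background, 16 of 39 genes lay above it. After quantile normalization, with or without a block, Ube2c and Ube2cbp differed by -0.0858 and -0.0497, and Ube2cbp by -0.0075 with median centring and -0.005 in letter-named arrays. Without 1 array the sign also turned for Ube2c (-0.1773 to 0.2283), Ube2cbp (-0.1214 to 0.1083), Ube2d3 (-0.0016 to 0.1242), Ube2h (-0.04 to 0.3733), Ube2j2 (-0.0433 to 0.07), Ube2t (-0.242 to 0.0417), Ube2v1 (-0.0604 to 0.0083) and Ube2v2 (-0.025 to 0.1183). The cause was not tested. Of 673 values of 19 named genes under the alternatives, 617 kept their direction and side of the threshold, 44 reversed in direction and 12 passed the threshold. As 0 of the 39 genes passed without a block, keeping the side of the threshold says little. A mean over several rows of a gene was not run, since each Ube2 gene has 1 row. Signal over background limits the 13 genes below it.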

Other observations

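The 2 probe sets that name Ube2g2, an enzyme of endoplasmic reticulum degradation, with another gene were left out of the 39. The one shared with Sumo3 gave 5.73, 6.34, 6.03 and 6.21 in control and 6.17, 6.22, 6.42 and 6.48 in BPS arrays. Its groups overlapped, and the difference was 0.25 ± 0.14 (SE, limma adjusted p = 0.514). The one shared with Mir1930 lay below background in every array and differed by 0.02 ± 0.07. Sumo3 alone, on its own probe set, had a mean of 6.82 and differed by -0.02.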
